A study of Homo sapiens with 6 samples.

Results

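The enzymes that build, transfer and remodel N-linked glycans were examined in LP-1/Cfz, a carfilzomib-resistant derivative of the human multiple myeloma cell line LP-1, and in parental LP-1 cells. The members were chosen by name: a probe set was a member when its single annotated gene symbol was 1 of 44 listed genes. Of the 44 genes, 41 were measured, by 94 of the 54613 probe sets of the array, and these 41 stand among 19775 genes with a probe set of their own. PMM2 was not analysed here, GMPPB was met only by 3 probe sets shared with AMIGO3, and ALG11 only by 2 probe sets shared with UTP14C and UTP14A, so these 3 genes have no value below.

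N-glycosylation starts on the membrane of the endoplasmic reticulum, where sugars are added one by one to a lipid carrier, dolichol, first on the cytosolic face and then in the lumen. The oligosaccharyltransferase complex moves the finished oligosaccharide as a block onto asparagines of nascent proteins, glucosidases and mannosidases trim it during folding, and transferases of the Golgi apparatus then add branches, galactose, fucose and sialic acid. Plasma cells, from which myeloma arises, secrete glycosylated immunoglobulin and have an extended endoplasmic reticulum.

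LP-1/Cfz cells had been selected with stepwise higher doses of carfilzomib, an irreversible proteasome inhibitor, until they resisted 12 nM, and had then been kept 1 week without the drug, while LP-1 cells had not been selected. Both were grown in medium that the labels give as having 4% serum, and each was hybridised in 3 samples to Affymetrix U133 Plus 2.0 arrays, 1 array a sample. LP-1/Cfz is a single selected line, so that what belongs to this line and what belongs to resistance cannot be told apart, and nothing in the sources used here says that the 3 samples came from separate cultures, so that a p-value here covers only how far these samples differ among themselves, which may be technical. The deposited values are on a log2 scale and centred for each probe set on a baseline that is not given, so that a value can be set against that of another array but says nothing of how strongly a gene was expressed.

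The LP-1/Cfz replicate 3 array stood somewhat apart. Its values were spread more widely (interquartile range 0.338, against 0.236 and 0.264 for the other LP-1/Cfz arrays and 0.230 to 0.253 for the LP-1 arrays), and it had the lowest of the weights that limma estimated for the arrays, 0.389. Of the 8 plasma cell markers, SDC1, MZB1 and TNFRSF17 were higher and CD38 lower (log2 fold change -1.07) in LP-1/Cfz, while none of 4 myeloid and 6 stromal markers was called and of 7 measured T and NK cell markers GNLY alone was called, lower (-0.30). Since the values are centred, the presence or absence of a marker cannot be read from them, and in bulk RNA fewer cells of a type and less RNA per cell cannot be told apart.

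Across the pathway, 17.1% of the enzymes were called, beside 16.7% of all genes, and the differences were small, as over genes in general. MAGT1, a subunit of the oligosaccharyltransferase complex, had the largest difference and rose 1.48-fold in LP-1/Cfz. ALG13, ALG9 and ALG1, which extend the dolichol-linked oligosaccharide, rose 1.14- to 1.21-fold. MAN1A1, a trimming mannosidase of the Golgi apparatus, and MGAT2 and MGAT5, which start and add branches, fell 1.13- to 1.19-fold. The 4 that rose all act up to and including transfer to protein, and the 3 that fell all act after it. A wider list of other N-glycan genes, given below, did not show this split. There 2 branching genes rose and 0 fell, and the 2 genes that fell were in sugar donors. Whether these 3 falls were called depended on how the probe sets of all genes were summarised. With the median of a gene's probe sets, with plain _at probe sets alone or with its probe set of highest mean, 0 genes were lower. MAN1A1 and MGAT5 have 2 probe sets each, so that their median is their mean. Under the median they kept -0.21 and -0.17 and lost only the call. MGAT5, whose 2 probe sets are both plain _at, also kept its value with those alone. MGAT2 has no plain _at probe set and so had no value with those alone. MGAT5 stood at 0.075 with its probe set of highest mean, which is picked by the mean over all arrays. Because the values are centred, that pick does not mark the strongest signal and can pass over a probe set that fell. The other 34 genes did not pass the test.

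The test was limma's moderated comparison of the 3 LP-1/Cfz with the 3 LP-1 arrays on 1 value a gene, the mean of its single-gene probe sets, with Benjamini-Hochberg adjustment over all 19775 genes and a call at an adjusted p under 0.05. The 7 called members were 17.1% of the 41, against 16.7% of all genes called. By direction, 4 of 41 members rose, where 6.72% of all genes did, and 3 fell, where 10.0% of all genes did, so that the enzymes as a list were called about as often as genes in general. Their median log2 fold change was 0.07, beside 0.02 over all genes, and their median size irrespective of sign was 0.10, the same as over all genes to 2 decimals. On single probe sets, 10 of the 94 rose and 2 fell, where 11.0% of all probe sets were called, 4.25% higher and 6.76% lower. The values of the LP-1/Cfz and LP-1 arrays did not overlap for 22 of the 41 genes, or 53.7%, beside 35.9% of all genes. When a fold of more than 1.2 was asked for, limma's treat called 3.16% of all genes and 1 member, MAGT1 (adjusted p = 0.0185).

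**Figure D1:**
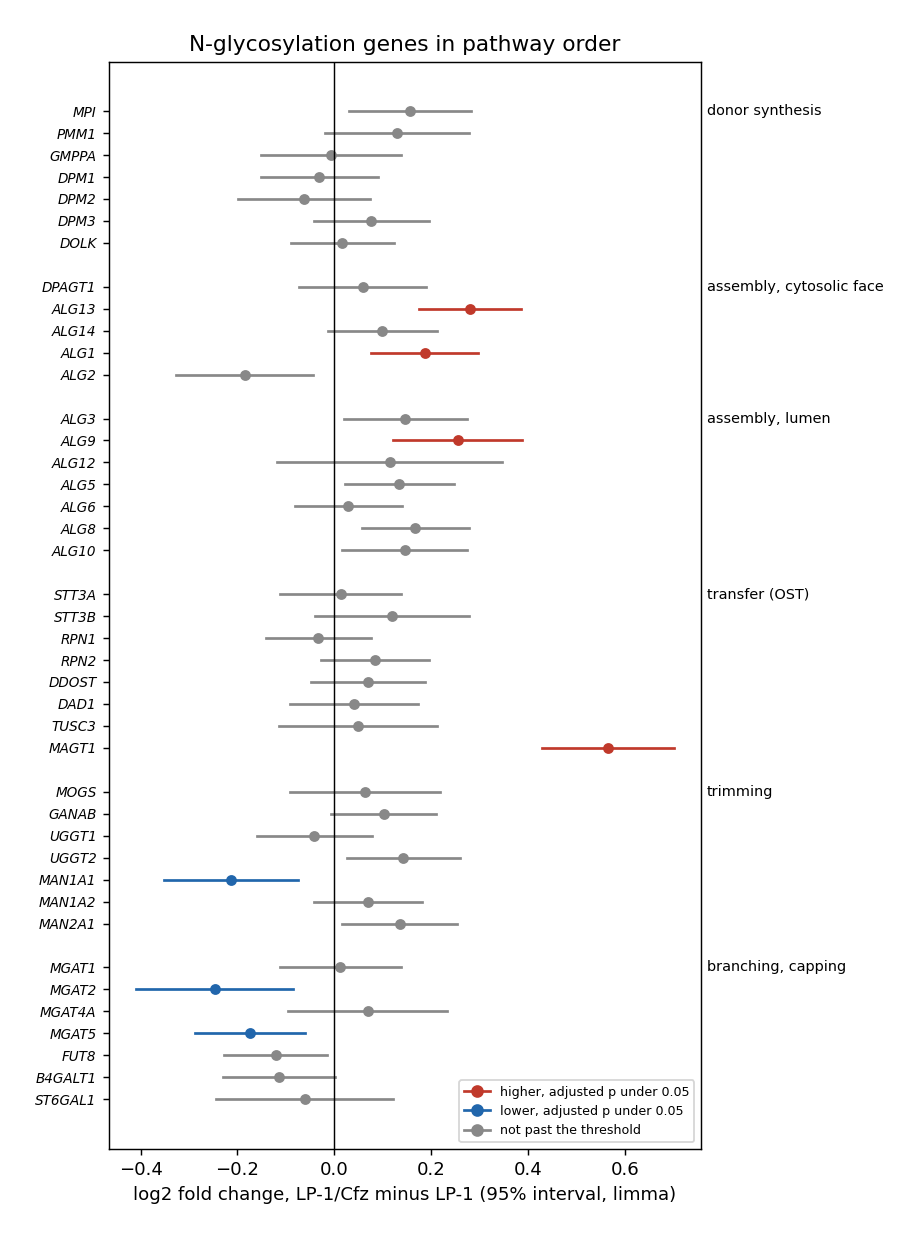
Log2 fold change of LP-1/Cfz over LP-1 (horizontal axis) for the 41 measured genes, from sugar donors at the top to branching at the bottom, with 95% intervals from limma and colour for the call. MAGT1 stands alone at 0.56, the called genes above transfer lie to the right of 0 and those below it to the left, and most intervals of the other genes cross 0.

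The sugar donor enzymes make the activated mannose and the dolichol phosphate on which assembly depends. None of the 7 measured genes was called, and their log2 fold changes ran between -0.06 and 0.16 around a median of 0.02. The largest was that of MPI, which links fructose phosphate to mannose phosphate: its LP-1/Cfz arrays read 0.49, 0.59 and 0.46, and its LP-1 arrays 0.38, 0.31 and 0.38. The groups did not overlap, but the difference of 0.16 had an adjusted p of 0.096 in limma. One of its 2 probe sets, 202472_at, rose by 0.25 (adjusted p = 0.0497), while the other, 230524_at, differed by 0.06 with overlapping groups. PMM1, a phosphomannomutase, differed by 0.13 and DPM3, a subunit that tethers dolichol phosphate mannose synthase to the membrane, by 0.08. DPM1, the catalytic subunit of that synthase, differed by -0.03, DPM2 by -0.06, DOLK, the dolichol kinase, by 0.02, and GMPPA, a regulatory subunit of GDP-mannose synthesis, by -0.01, and the groups overlapped for all 4.

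On the cytosolic face, 2 of the 5 measured genes rose. ALG13, which with ALG14 adds the second sugar to dolichol, had 0.16, 0.15 and 0.16 in LP-1/Cfz, against -0.14, -0.09 and -0.14 in LP-1. The LP-1/Cfz arrays lay all above the LP-1 arrays and close to each other, and the log2 fold change was 0.28 ± 0.05 (SE, n = 3 each), with an adjusted p of 0.00492 in limma. The 5 probe sets of ALG13 were not equal in this: 219015_s_at rose by 0.58 (adjusted p = 0.000672) and 222808_at by 0.50 (adjusted p = 0.00455), while 205583_s_at, 205584_at and 232435_at differed by 0.17, 0.06 and 0.09 and were not called. For 219015_s_at the arrays read 0.69, 0.69 and 0.65 in LP-1/Cfz and 0.11, 0.08 and 0.12 in LP-1. The mean over the gene therefore understates what these probe sets measured, and which transcripts each probe set detects was not analysed here.

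ALG1 adds the first mannose. Its 1 single-gene probe set read 0.32, 0.31 and 0.27 in LP-1/Cfz, against 0.15, 0.09 and 0.10 in LP-1. A further 1 that names several genes was left out, so that the value of ALG1 rests on a single probe set. The groups were apart by 0.19 ± 0.05 (SE, n = 3 each), which passed the test over genes (limma, adjusted p = 0.034) but not that over probe sets (adjusted p = 0.0886).

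ALG14, the membrane partner of ALG13, differed by 0.10 as a gene (95% interval -0.01 to 0.21, adjusted p = 0.22). Its probe sets ran apart: 1553954_at rose by 0.29 (adjusted p = 0.0381), and 228871_at differed by -0.09 (adjusted p = 0.436). ALG2, which adds the next mannoses after ALG1, showed the same kind of split in the other direction. Its probe set 225621_at read -0.29, -0.32 and -0.39 in LP-1/Cfz and lay within 0.01 of 0 on every LP-1 array, a fall by 0.33 (adjusted p = 0.0106), whereas 228166_at differed by -0.04 with overlapping groups. As a gene ALG2 was at -0.19 (adjusted p = 0.0809 in limma) and so was not called. DPAGT1, the enzyme of the first step and the target of tunicamycin, differed by 0.06 and its groups overlapped (95% interval -0.07 to 0.19).

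In the lumen, mannosyltransferases and glucosyltransferases complete the oligosaccharide. The 7 genes measured for this step include ALG5, which makes a donor for it and does not itself extend the oligosaccharide. All 7 had a positive log2 fold change, with a median of 0.15 and a range of 0.03 to 0.25. Only ALG9 passed the test. ALG9, a mannosyltransferase, read 0.67, 0.56 and 0.50 in LP-1/Cfz, against 0.29, 0.33 and 0.35 in LP-1. All its LP-1/Cfz arrays were above all LP-1 arrays, and it rose by 0.25 ± 0.06 (SE, n = 3 each, adjusted p = 0.02 in limma). Its probe set 219374_s_at rose by 0.31 (adjusted p = 0.0184) and 228817_at differed by 0.20 (adjusted p = 0.126), so that both pointed the same way.

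ALG8, a glucosyltransferase, lay just outside the threshold at 0.17 ± 0.05 (SE, n = 3 each, adjusted p = 0.0507) with groups that did not overlap. ALG3, a mannosyltransferase, ALG5, which makes dolichol phosphate glucose, and ALG10, which adds the last glucose, differed by 0.15, 0.13 and 0.15, also without overlap, and their adjusted p-values were 0.107 to 0.125. ALG10 has a near-identical neighbour, ALG10B, and 3 further probe sets that name both were left out, so that its value is uncertain. ALG6, which adds the first glucose, differed by 0.03. ALG12, a mannosyltransferase, had 0.12, 0.03 and -0.27 in LP-1/Cfz, against -0.15, -0.22 and -0.10 in LP-1. Its groups overlapped through LP-1/Cfz replicate 3 alone. Over all arrays its difference of 0.11 was not called (adjusted p = 0.5), and without that array it was 0.23 with an adjusted p of 0.0442 in limma.

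Transfer to protein is carried out by oligosaccharyltransferase, which exists as a complex around STT3A that works along with translation and a complex around STT3B that reaches sites left over afterwards. Among the 8 subunits, MAGT1 rose and the other 7 did not pass the test. MAGT1 belongs to the STT3B complex, where it acts as an oxidoreductase that keeps cysteines near the acceptor site reduced, and it has also been described as a magnesium transporter. It read 0.19, 0.23 and 0.06 in LP-1/Cfz, against -0.42, -0.38 and -0.42 in LP-1. The gap between the lowest LP-1/Cfz and the highest LP-1 array was wider than the spread within either group, and the log2 fold change was 0.56 ± 0.06 (SE, n = 3 each, 95% interval 0.43 to 0.70, adjusted p = 0.00058 in limma).

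All 3 probe sets of MAGT1 rose. The largest difference was that of 221553_at, 0.72 (adjusted p = 0.000604), which read -0.02, 0.15 and 0.04 in LP-1/Cfz and -0.72, -0.60 and -0.67 in LP-1. Probe set 224899_s_at rose by 0.54 (adjusted p = 0.00189). Probe set 210596_at rose by 0.43 (adjusted p = 0.0232), and there LP-1/Cfz replicate 3 read 0.09, well under the 0.38 and 0.43 of the other LP-1/Cfz arrays, though still above every LP-1 array.

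**Figure D2:**
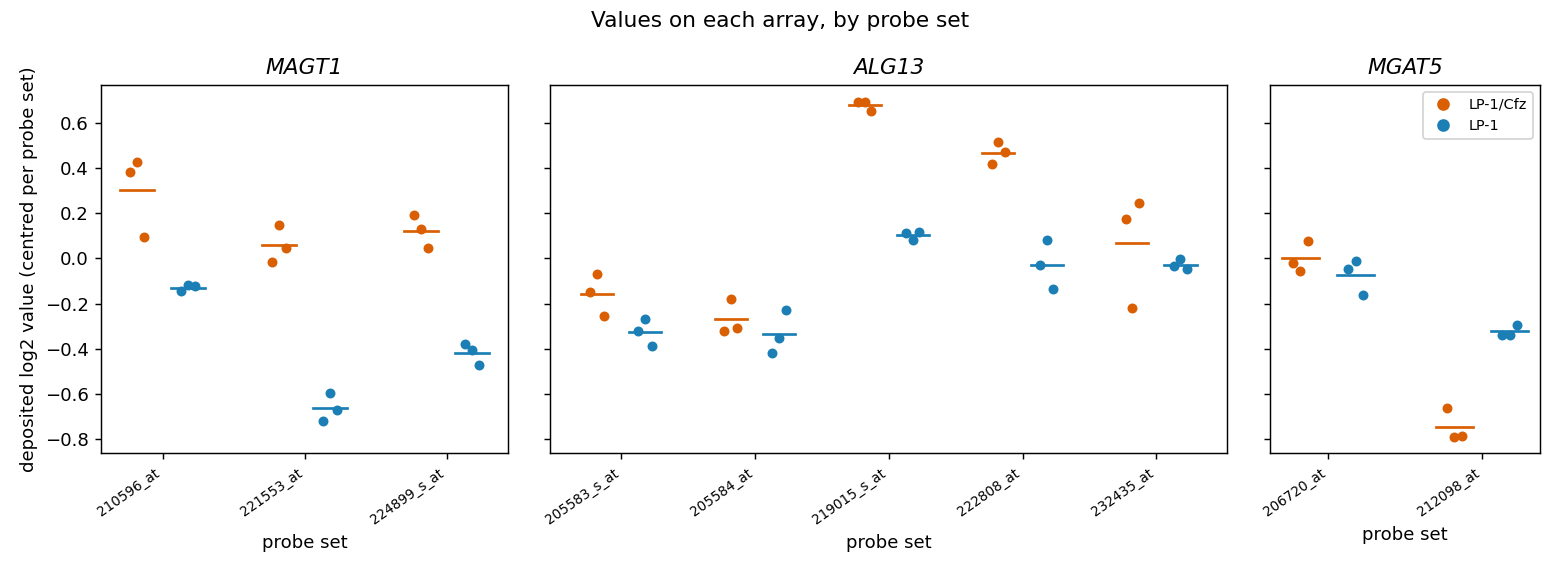
Value on each array (points, log2, centred) by probe set for MAGT1, ALG13 and MGAT5, with LP-1/Cfz left of LP-1 and a bar at each group mean. The 3 MAGT1 probe sets all separate the lines, whereas 2 of 5 ALG13 probe sets and 1 of 2 MGAT5 probe sets carry their difference.

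None of the remaining subunits was called. STT3A and STT3B, the catalytic subunits, differed by 0.01 (95% interval -0.11 to 0.14) and 0.12 (95% interval -0.04 to 0.28), with overlapping groups for both. After quantile normalization STT3B differed by 0.22 (adjusted p = 0.0504) and RPN2 by 0.14 (adjusted p = 0.0832), and neither was called. RPN1, RPN2, DDOST and DAD1, subunits common to both complexes, differed by -0.03, 0.08, 0.07 and 0.04. TUSC3, which can take the place of MAGT1 in the STT3B complex, differed by 0.05 (95% interval -0.11 to 0.21), and LP-1/Cfz replicate 3, at 0.19, was its highest array. None of these intervals reached the lower bound of MAGT1.

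**Figure D3:**
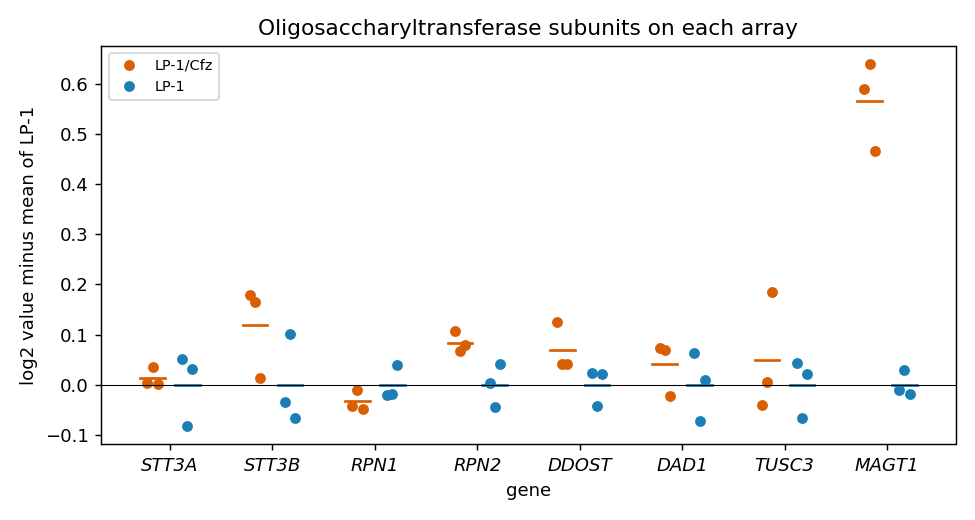
Log2 value on each array less the mean of the LP-1 arrays of the same gene, for the 8 oligosaccharyltransferase subunits, with LP-1/Cfz left of LP-1. The 3 LP-1/Cfz arrays of MAGT1 lie far above its LP-1 arrays, while the points of STT3A, STT3B, RPN1, DAD1 and TUSC3 overlap.

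Genes with related roles were set against each other within each array, in 5 pairs, by an exact two-sided permutation test over the 6 arrays. With 3 arrays against 3 this test cannot give a p under 0.1, so that no pair could pass, and the sizes are given as measured. TUSC3 differed from MAGT1 by -0.52 in log2 fold change (exact permutation p = 0.1, adjusted p = 0.125 over the 5 pairs). MAN1A1 differed from MAN1A2 by -0.28, UGGT1 from UGGT2 by -0.18 and RPN1 from RPN2 by -0.12, each without overlap of the groups and with the same p. STT3A differed from STT3B by -0.11, with overlap (exact permutation p = 0.4, adjusted p = 0.4). The pairs of PMM1 with PMM2 and GMPPA with GMPPB could not be formed.

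Trimming begins with removal of glucose and is the stage at which folding is monitored. Of its 7 genes, MAN1A1 fell and the other 6 were not called. MAN1A1, a Golgi mannosidase, read -0.13, -0.03 and -0.20 in LP-1/Cfz, against 0.04, 0.14 and 0.10 in LP-1. The groups were close but did not overlap, and it fell by 0.21 ± 0.06 (SE, n = 3 each, adjusted p = 0.0462 in limma). Its probe sets differed by -0.27 (adjusted p = 0.0654) and -0.16 (adjusted p = 0.196), and neither was called by itself.

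MAN1A2, a related mannosidase, differed by 0.07 as a gene (adjusted p = 0.388). One of its 6 probe sets, 217922_at, rose by 0.27 (adjusted p = 0.0253), with 0.13, 0.10 and 0.19 in LP-1/Cfz and -0.12, -0.17 and -0.10 in LP-1, and the other 5 had overlapping groups. UGGT1 and UGGT2 put a glucose back on misfolded glycoproteins. UGGT1 differed by -0.04, and none of its 5 probe sets was called. UGGT2 differed by 0.14 (adjusted p = 0.0976), where 1 of 7 probe sets, 218801_at, rose by 0.32 (adjusted p = 0.0358). MOGS, the first glucosidase, GANAB, the catalytic subunit of the second, and MAN2A1, a later Golgi mannosidase, differed by 0.06, 0.10 and 0.13.

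Branching was the stage with the most negative values: 5 of 7 genes were below 0, with a median of -0.11, and 2 fell. MGAT2, which starts the second antenna, read -0.02, -0.13 and -0.27 in LP-1/Cfz, against 0.12, 0.08 and 0.12 in LP-1. The LP-1/Cfz arrays were spread over a wider range than the LP-1 arrays but all lay under them, and MGAT2 fell by 0.25 ± 0.07 (SE, n = 3 each, adjusted p = 0.0488 in limma). Its 3 probe sets differed by -0.32, -0.22 and -0.19, at adjusted p-values of 0.108 to 0.112, so that the gene passed only as the mean of 3 similar differences.

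MGAT5, which adds the branch on which polylactosamine chains favoured by galectins are built, read -0.34, -0.42 and -0.35 in LP-1/Cfz, against -0.19, -0.17 and -0.23 in LP-1. It fell by 0.17 ± 0.05 (SE, n = 3 each, adjusted p = 0.0488 in limma) with no overlap. This came from 1 of 2 probe sets: 212098_at read -0.66, -0.79 and -0.79 in LP-1/Cfz and -0.34, -0.34 and -0.29 in LP-1, a fall by 0.42 (adjusted p = 0.00494), whereas 206720_at differed by 0.08 with overlapping groups (adjusted p = 0.575).

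FUT8, the core fucosyltransferase, and B4GALT1, a galactosyltransferase, differed by -0.12 (adjusted p = 0.122) and -0.11 (adjusted p = 0.17), both without overlap. The 6 probe sets of B4GALT1 disagreed in size and sign, between -0.37 and 0.13, and none was called over all arrays. MGAT1, which opens the complex pathway, differed by 0.01, MGAT4A, another branching enzyme, by 0.07, and ST6GAL1, a sialyltransferase, by -0.06. One ST6GAL1 probe set, 214971_s_at, stood at -0.63 on LP-1/Cfz replicate 3 and near 0 on the other LP-1/Cfz arrays.

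Set side by side, donors, assembly and transfer held 22 positive values among 27 genes, with a median of 0.08, of which 4 rose and 0 fell. The 4 include MAGT1 and ALG13, the members on chromosome X that are treated below. Assembly alone, with ALG5 counted in it, held 11 positive values among 12, with a median of 0.14. Trimming and branching held 7 positive and 7 negative values with a median of -0.01, of which 0 rose and 3 fell. These counts describe the lists, whose members were not drawn at random, and the difference between the stages was not tested. The share of positive values over all genes was not counted, and the median over all genes was 0.02.

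The calls differed in how often they were kept when 1 array was left out. Each such fit has 1 array fewer and so less power, and a call near the threshold can be lost whichever array goes. Over the 6 fits ALG1 stayed within 0.17 to 0.21 and ALG9 within 0.21 to 0.29. MAN1A1 stayed within -0.26 to -0.17, MGAT2 within -0.31 to -0.18 and MGAT5 within -0.19 to -0.15. ALG13 and MAGT1 were called whichever of the 6 arrays was left out (highest adjusted p 0.0299 and 0.00479). ALG13 was lost, however, when the median of its 5 probe sets was taken in place of their mean (0.17, adjusted p = 0.242), and when a fold of more than 1.2 was asked for, whereas MAGT1 kept its call under both. ALG9 was kept only without LP-1/Cfz replicate 2 or 3 (adjusted p up to 0.0811 otherwise), ALG1 only without LP-1/Cfz replicate 3 (up to 0.128), MAN1A1 only without LP-1/Cfz replicate 2 (up to 0.147) and MGAT2 only without LP-1/Cfz replicate 1 (up to 0.145). MGAT5 was lost in all 6 fits (adjusted p 0.0554 to 0.147), although its probe set 212098_at was called in all 6 (highest adjusted p 0.03). Among the other called probe sets, 219015_s_at and 222808_at of ALG13 and 221553_at and 224899_s_at of MAGT1 were called in all 6 fits, and 225621_at of ALG2 was lost only without LP-1 replicate 3 (adjusted p = 0.0523). Each of the others was lost in at least 4 of the 6 fits: 217922_at of MAN1A2 in 4, 202472_at of MPI, 219374_s_at of ALG9, 210596_at of MAGT1 and 218801_at of UGGT2 in 5, and 1553954_at of ALG14 in 6. Without LP-1/Cfz replicate 3, 5 members rose (MAGT1, ALG13, ALG9, ALG1 and ALG12) and 0 fell, while 16.1% of all genes were called. The 3 falls in trimming and branching did not pass without that array, but their log2 fold changes stayed negative, at -0.17 for MAN1A1, -0.18 for MGAT2 and -0.18 for MGAT5. On probe sets 212098_at of MGAT5 (-0.40), 225621_at of ALG2 (-0.30) and, as a call gained, 238987_at of B4GALT1 (-0.37, adjusted p = 0.0263) were lower without it.

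A wider list of 53 other genes of N-glycan synthesis, of which 48 were measured, had 3 that rose and 2 that fell, or 10.4% called, with a median of 0.05. Those called were in sugar donors and in branching. CMAS, which activates sialic acid, rose by 0.31 (adjusted p = 0.0401 in limma), while NANP, which releases the phosphate of sialic acid in the preceding step of the same route, fell by 0.34 (adjusted p = 0.00441). UGP2, which makes UDP-glucose, fell by 0.24 (adjusted p = 0.0409). In branching MGAT4B, the isoenzyme of MGAT4A, rose by 0.31 (adjusted p = 0.0097) and B4GALT4, a galactosyltransferase, by 0.25 (adjusted p = 0.0189). The 12 branching genes of this list held 9 positive and 3 negative values, with a median of 0.08, beside -0.11 for the branching members. None of the 4 additional oligosaccharyltransferase subunits and none of the 11 additional trimming enzymes was called.

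The 2 members called most firmly are also the only members on chromosome X. Among the 696 measured genes of that chromosome, 163 rose, or 23.4%, and 41 fell, or 5.89%, with a median of 0.08, beside 6.72% that rose and 10.0% that fell over all genes. Of the 20 measured genes next to MAGT1, 10 on each side, 10 rose and 1 fell, with a median of 0.25, and the one that fell was P2RY10, a G protein-coupled receptor, at -1.41. Of the 20 next to ALG13, counted likewise, 6 rose and 0 fell, with a median of 0.17. Near MAGT1 the genes that rose included ATRX, a chromatin remodeller, at 0.34, COX7B, a respiratory chain subunit, at 0.33, ATP7A, a copper transporter, at 0.49 and PGK1, a glycolytic enzyme, at 0.70, which were picked here after their values were seen for lying next to it. Within 5 Mb on either side, 14 of 31 genes rose around MAGT1 and 15 of 43 around ALG13.

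**Figure D4:**
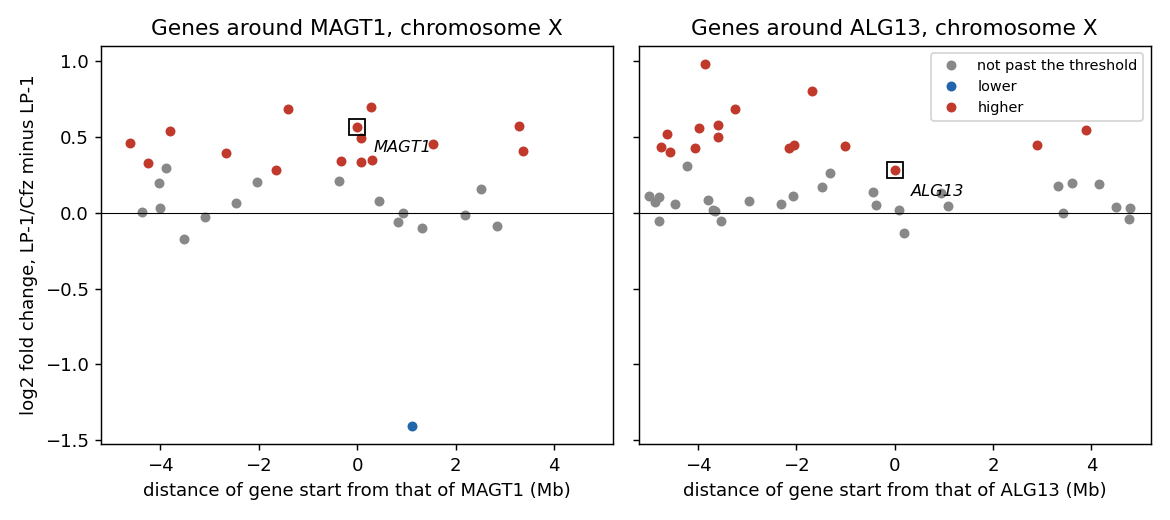
Log2 fold change (vertical axis) of the measured genes within 5 Mb of MAGT1 and of ALG13 on chromosome X, by distance of their starts (horizontal axis, Mb), with colour for the call. In both windows genes that rose stand on both sides of the member, with 1 that fell near MAGT1 and 0 near ALG13.

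For the 39 members on other chromosomes the counts were 2 that rose and 3 that fell, with a median of 0.06. The neighbourhoods of the other called members held few calls: of 20 genes taken in the same way, 2 rose and 1 fell around ALG9, 1 rose and 2 fell around ALG1 and around MGAT2, and 0 changed around MAN1A1 and MGAT5. ALG10, which was not called, lay among 6 neighbours that rose and 0 that fell. The copy number of these regions was not measured, and its part in the differences was not tested.

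Start regions of the members were read to see which letters known from stress-responsive promoters they hold. RefSeq promoter windows (GRCh38.p14, 250 bases before to 50 after a gene's start) were at hand for 37 of the 44 listed genes, in 56 windows. The windows are shown for MAGT1 and ALG13, which rose most, for MGAT5, whose probe set fell most, and for ALG12, the one member with the paired motif described next. MAGT1, ALG13 and MGAT5 have 2 windows each, of which the one farthest upstream is printed, and ALG12 has 1. The shares and gene counts given below take all windows. The printed windows read in the direction of the gene. Capitals mark each CCAAT or CCACG on either strand, where ATTGG and CGTGG are the same letters on the other strand. MAGT1 lies at chrX:77895519-77895818 on the minus strand, ALG13 at chrX:111680920-111681219 on the plus strand, MGAT5 at chr2:134119685-134119984 on the plus strand and ALG12 at chr22:49918389-49918688 on the minus strand.
MAGT1: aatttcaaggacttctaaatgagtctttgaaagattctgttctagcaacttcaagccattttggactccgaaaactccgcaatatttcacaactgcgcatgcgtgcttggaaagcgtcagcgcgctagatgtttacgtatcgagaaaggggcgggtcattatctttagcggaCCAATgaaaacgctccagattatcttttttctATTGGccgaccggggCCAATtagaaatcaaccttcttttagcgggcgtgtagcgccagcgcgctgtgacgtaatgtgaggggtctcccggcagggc
ALG13: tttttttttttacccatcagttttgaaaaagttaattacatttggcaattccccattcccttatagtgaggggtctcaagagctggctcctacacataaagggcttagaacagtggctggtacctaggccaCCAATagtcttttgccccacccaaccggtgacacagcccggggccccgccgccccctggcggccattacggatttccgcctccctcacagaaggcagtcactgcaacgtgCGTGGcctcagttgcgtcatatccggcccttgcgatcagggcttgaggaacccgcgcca
MGAT5: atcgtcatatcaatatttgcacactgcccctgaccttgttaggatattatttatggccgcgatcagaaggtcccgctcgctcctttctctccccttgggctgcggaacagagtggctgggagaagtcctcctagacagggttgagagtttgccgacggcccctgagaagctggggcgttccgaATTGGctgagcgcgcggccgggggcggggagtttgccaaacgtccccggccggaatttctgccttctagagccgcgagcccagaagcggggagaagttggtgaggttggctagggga
ALG12: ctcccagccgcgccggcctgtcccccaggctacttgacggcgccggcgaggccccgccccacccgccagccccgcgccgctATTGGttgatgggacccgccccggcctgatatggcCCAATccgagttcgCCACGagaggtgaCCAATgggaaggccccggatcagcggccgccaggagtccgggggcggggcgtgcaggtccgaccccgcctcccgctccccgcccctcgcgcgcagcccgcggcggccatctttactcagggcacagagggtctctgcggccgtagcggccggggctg

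CCAAT is the core of NF-Y sites and CCACG the part read by ATF6 when the pair stands 9 bases apart, as the endoplasmic reticulum stress element. The printed windows hold 3 CCAAT matches in MAGT1, 1 in ALG13, 1 in MGAT5 and 3 in ALG12, and 1 CCACG match each in ALG13 and ALG12. CCAAT was found on either strand in 42.9% of the member windows, beside 34.6% of all 35116 windows, and CCACG in 62.5%, beside 38.1%. All 7 called members had CCAAT in a window, as did 22 of the 37 genes. These counts take a match in any window of a gene, so that a gene with more windows has more chances of one. The same share over all genes was not computed, and the shares per window are no measure for them. The full pair was found in 1 member window, that of ALG12 (bases 117 to 135), or 1.79%, beside 0.0769% of all windows.

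GACGTG, read by XBP1 and ATF6, was found in 14.3% of member windows, beside 7.81% of all windows. Among the called members it was found only in ALG13, in the window of that gene that is not printed above. It overlapped a CCACG match in 3 member windows. The core TGACNNNGC of the antioxidant response element, which Nrf2 binds with small Maf proteins, was found in 21.4%, beside 13.3%, and among called members in ALG13, ALG1 and MAN1A1. It overlapped a CCAAT match in 1 member window. Member windows were also richer in G and C (median 61.8%, beside 58.7% over all windows), and the part of base composition in these shares was not tested. These matches are a description of letters, and no binding was measured here.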

How the data were processed

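The authors deposited log2 values of 54613 probe sets, with RMA named in the submitters' processing notes and no version, centred for each probe set on a baseline not given in the sources used here. Because of the centring no filter on dim probe sets could be made, and the number of arrays limits the precision. Of the probe sets, 41091 name 1 gene in the platform's annotation, 1801 several and 11721 none, and 41037 of the 41091 matched a RefSeq gene by identifier. Probe sets with several genes were not used. LP-1/Cfz and LP-1 were compared by limma 3.58.1 in R 4.3.3 (lmFit, eBayes, no covariate, Benjamini-Hochberg), over probe sets and over the mean of the single-gene probe sets of 19775 genes, and the scripts were tested on simulated data. Intervals are at 95%.

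The members and lists were chosen with earlier results of these data known. Named with values were members called as a gene or by a probe set, both genes of each paralogue pair, and of the wider list up to 3 called genes in each direction per step. All other members were accounted for by value, and ALG8, ALG12, the neighbours on chromosome X and single probe sets of other members were named after their values were seen. Alternatives were a replicate block, each array left out, array weights, quantile normalization, median centring, robust eBayes, a minimum fold of 1.2 and other summaries of probe sets.

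Promoter windows were taken from a RefSeq table of GRCh38.p14, matched by gene, and searched on both strands.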

Additional observations from a re-analysis of the deposited data

How the results depend on the processing

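The median log2 fold change of the 41 genes stayed positive under every alternative run. Against 10 higher and 2 lower probe sets and 4 higher and 3 lower genes, leaving out each array in turn gave 4 to 8 higher and 1 to 3 lower probe sets and 2 to 5 higher and 0 to 1 lower genes. By step the same fits gave 1 to 2 higher genes on the cytosolic face, 0 to 2 higher in the lumen, 0 to 1 lower in trimming, 0 to 1 lower in branching, and 1 to 5 higher and 1 to 4 lower in the wider list. The median ranged over 0.05 to 0.08, and the paralogue differences over -0.20 to -0.06 for STT3A minus STT3B, -0.63 to -0.46 for TUSC3 minus MAGT1, -0.14 to -0.10 for RPN1 minus RPN2, -0.23 to -0.15 for UGGT1 minus UGGT2 and -0.31 to -0.25 for MAN1A1 minus MAN1A2.

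The deviations of same-numbered arrays from their group means had correlations of -0.05, 0.13 and -0.01, and not every array correlated best with its own number. This check showed no clear pairing by replicate number, but with so few arrays it cannot exclude one. With the replicate number as a block, 5 probe sets were higher, 2 genes higher and 0 lower, with 1 higher on the cytosolic face, 0 in the lumen, 0 lower in trimming and 0 in branching, and 1 lower in the wider list. Array weights gave 2 higher in the lumen (ALG8 joining at an adjusted p of 0.0264), 1 lower in branching, and 8 higher and 4 lower in the wider list. Quantile normalization gave 1 higher on the cytosolic face, 1 lower in branching and 4 lower in the wider list, and robust eBayes 1 lower gene, with 0 in branching. The median of the probe sets of a gene gave 0 lower genes, with 1 higher on the cytosolic face (ALG13 being lost) and 0 lower in trimming and in branching. Plain _at probe sets alone, which a smaller number of genes have, gave 2 higher and 0 lower genes, with 1 on the cytosolic face, 0 in the lumen, 0 in trimming and 0 in branching. Only 31 members have such a probe set, and MGAT2, which has none, could not be called there. Taking for each gene its probe set of highest mean gave 0 lower genes, 1 higher donor gene (MPI), 0 lower in trimming and in branching, and 6 higher in the wider list. On the cytosolic face ALG14 gained a call there (0.29, adjusted p = 0.0323 in limma) and ALG1 lost its own. The mean behind this choice is taken over the centred values of the compared arrays. It therefore does not mark the strongest signal, and a fall or rise in LP-1/Cfz itself moves the choice. A minimum fold of 1.2 left 2 higher and 0 lower probe sets and 1 higher and 0 lower genes, with 0 in the cytosolic, lumenal, trimming and branching steps and 0 higher and 0 lower in the wider list. By construction the minimum fold asks for more than the main test. For the other settings the cause was not tested. MAN1A1 and MGAT5, with 2 probe sets each, kept their log2 fold changes under the median and lost only the call.

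Signs turned with the highest-mean probe set for MGAT5, at 0.075 (206720_at, adjusted p = 0.549), and MAN1A2, at -0.059. With array weights TUSC3 was at -0.0087 and GMPPA at 0.027. Leaving out arrays moved STT3A over -0.028 to 0.039 (negative without LP-1 replicate 2), TUSC3 over -0.018 to 0.095 (negative without LP-1/Cfz replicate 3) and GMPPA over -0.048 to 0.043 (positive without LP-1/Cfz replicate 3 and without LP-1 replicate 3).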
